A study of Mus musculus with 9 samples.

Results

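Calorie-restricted wild-type livers were set directly against the livers of freely fed mice that lack *Dgat1*, with no freely fed wild-type array in the comparison. Of the 9 liver arrays of the series, 6 entered it, 3 of WTCR mice (wild-type, caloric restriction diet) and 3 of Dgat1-/-AL mice (*Dgat1*-deficient, fed ad libitum), and the other 3 (WTAL, wild-type, ad libitum) are given as a reference level and enter only alternative fits. All mice were females of the C57BL/6J background aged 15 to 16 months and kept on standard chow. Each Affymetrix Mouse Gene 1.0 ST array held total liver RNA of 1 mouse. The *Dgat1* deletion was present in every cell of the animal. Caloric restriction was short-term, with the daily ration lowered in stages, so it stands for neither lifelong restriction nor a fast. The groups differed in genotype and in diet at once, so the parts of the deletion and of the diet in a difference cannot be told apart within this comparison. Time since the last meal and the hour of killing are not given for either group, and they likewise cannot be told apart from group.

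DGAT1 joins a fatty acyl chain to diacylglycerol in the last step of triglyceride synthesis, and the unrelated enzyme DGAT2 makes the same bond. Restricted feeding is known to reset the phase of the liver clock, to raise glucocorticoids and to lower thyroid hormone and growth hormone signaling. The liver answers a shortage of food by releasing glucose, oxidizing fatty acids and holding back growth.

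All 28815 probe sets were tested, of which 21780 carried exactly 1 gene symbol and stood for 19935 genes. A gene was read at its probe set of highest mean signal over the 6 arrays. All values are log2 signals or differences of log2 signals (WTCR minus Dgat1-/-AL), so a difference of 1 is a doubling. A gene was called at a fold over 1.3 with an unadjusted limma p under 0.05, the threshold of the study, and a stricter count used the Benjamini-Hochberg adjustment over every probe set. The median SD between mice was 0.104 in WTCR and 0.124 in Dgat1-/-AL, and 3 arrays per group limit the precision of every value. The first principal component (42.2% of the variance of the 6 arrays) separated the groups, and the second (32.9%) set WTCR replicate 1 and Dgat1-/-AL replicate 1 (20.4 and 30.9) apart from the other 4 arrays (-26.4 to -1.82). On the array labelled WTAL replicate 2 the *Dgat1* signal was 5.67, which goes against the label (7.86 and 8.04 on the other WTAL arrays). This array entered no fit of the 6 arrays. It entered the alternative fits over all 9 arrays, the WTAL means and the WTAL points of the figures. In bulk RNA, fewer cells of a type cannot be told apart from less RNA per cell.

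Between the 2 groups 2222 probe sets were called, 7.71% of all. By gene the count was 1555 (7.80%), with 739 genes (3.71%) higher and 816 (4.09%) lower in WTCR. At an adjusted p under 0.05 the counts were 172 probe sets (0.597%) and 124 genes (0.622%), 67 of them (0.336%) higher and 57 (0.286%) lower in WTCR. The stricter probe set counts of 91 higher and 81 lower changed when 1 array was left out, and the part of the smaller number of arrays in this cannot be told apart from that of the array itself. They were 0 and 0 without Dgat1-/-AL replicate 2 or 3 or WTCR replicate 1, 1 and 1 without WTCR replicate 2, 2 and 1 without WTCR replicate 3, and 140 and 79 without Dgat1-/-AL replicate 1, while 2901 to 4875 probe sets had an unadjusted limma p under 0.05 in each of these fits, against 3823 with all 6 arrays. Counts at the study's threshold moved by at most 1.36 times in the same fits.

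The WTAL mean lay nearer to Dgat1-/-AL than to WTCR in 658 of the 739 genes higher in WTCR and in 708 of the 816 lower (653 and 717 without the array labelled WTAL replicate 2). These positions describe the genes and were not tested.

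*Dgat1* itself separated the groups. Its signal was 8.89, 8.76 and 8.56 in the WTCR arrays and 6.13, 5.83 and 5.39 in the Dgat1-/-AL arrays, 2.95 ± 0.20 apart (SE of the fitted difference, 3 mice in each group, adjusted p = 0.0224). Where the probes lie relative to the deleted part is not given in the sources used here, so the signal left in Dgat1-/-AL is no measure of transcript. *Dgat2* was at 11.43, 10.98 and 10.96 in WTCR and 11.40, 10.88 and 10.98 in Dgat1-/-AL (0.04 ± 0.19, adjusted p = 0.96), and the groups overlapped.

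**Figure D1:**
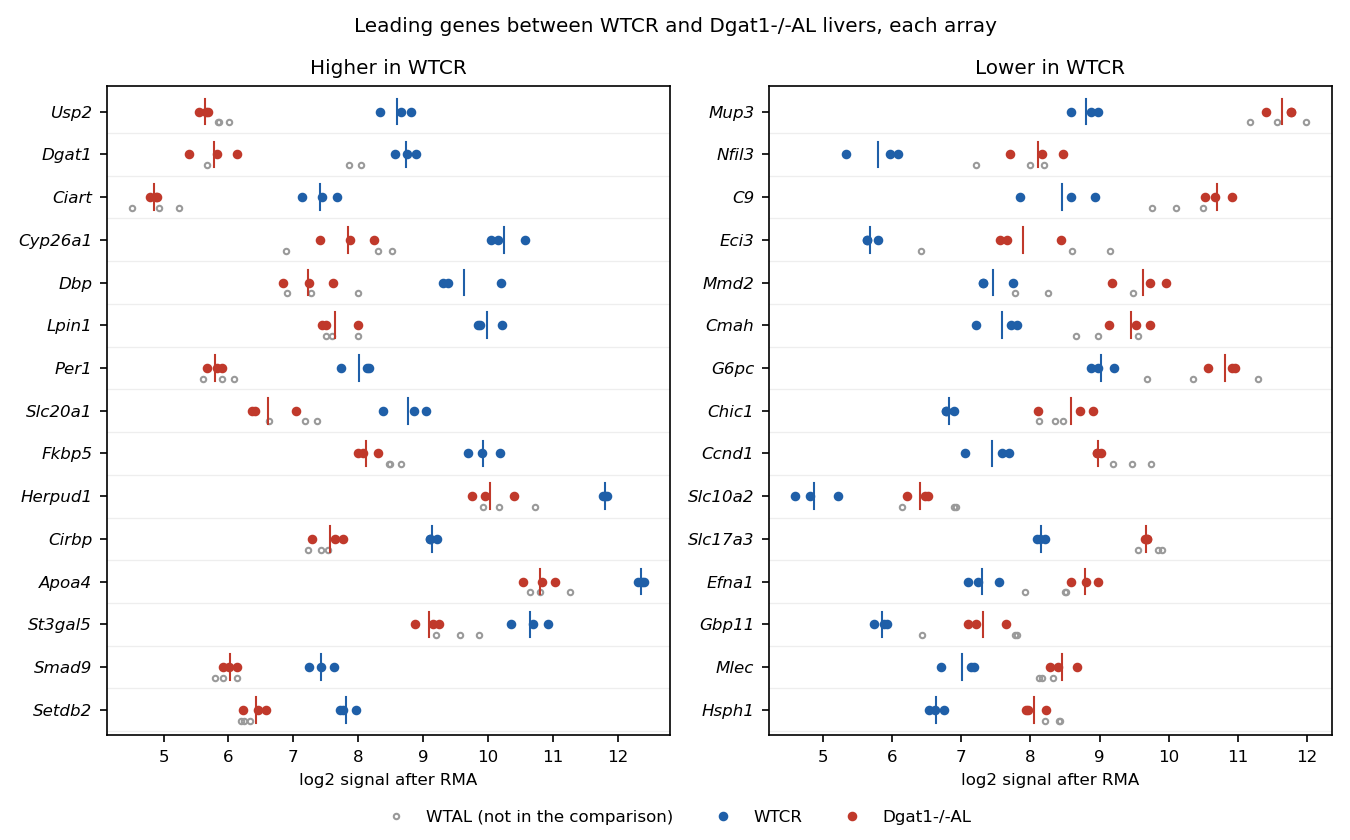
Log2 signal (x axis) of the 15 genes with the largest differences in each direction (y axis) on each array. Blue points are WTCR, red points Dgat1-/-AL and open gray points WTAL arrays, with vertical bars at the means of the compared groups. The 30 were picked among genes with an adjusted p under 0.05 whose WTCR and Dgat1-/-AL points do not overlap. Over all genes, 16.7% had no overlap.

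The genes that stood highest in WTCR were led by clock-controlled transcripts. *Usp2*, a deubiquitinase whose transcript cycles with the liver clock, was at 8.81, 8.34 and 8.66 in WTCR against 5.66, 5.55 and 5.69 in Dgat1-/-AL (2.97 ± 0.13, a 7.83-fold difference, adjusted p = 0.00635). The WTAL arrays, at 5.84, 6.01 and 5.86, lay close to the mutant ones. *Ciart*, a repressor within the clock, gave 7.44, 7.68 and 7.13 against 4.90, 4.88 and 4.79 (2.56 ± 0.14), and its other probe set 3.37 ± 0.36. *Per1*, a feedback repressor of CLOCK and BMAL1, gave 8.17, 8.13 and 7.73 against 5.90, 5.67 and 5.83 (2.21 ± 0.14). *Dbp*, an activator of daytime liver genes, gave 10.20, 9.30 and 9.39 against 7.24, 6.84 and 7.61 (2.40 ± 0.30). *Nfil3*, a repressor of the same target sites as DBP, ran the other way, at 5.97, 6.08 and 5.34 in WTCR against 8.47, 8.16 and 7.71 (-2.32 ± 0.27). These 5 genes come from the leading set, which was picked for groups that do not overlap. Their lack of overlap was therefore fixed by that choice.

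Of 16 core clock genes 6 were called higher in WTCR and 0 lower (1 lower with a replicate block or without WTCR replicate 2), with a median difference of 0.32 against 0.00 over all genes. Besides *Ciart* and *Per1* they included *Per3* (1.57 ± 0.25), *Per2* (0.79 ± 0.15) and *Cry1* (0.64 ± 0.14). *Arntl* and *Clock*, of the activating arm, and *Nr1d1* are given beside these, and were picked after their values were seen. *Arntl*, which encodes BMAL1, was at 5.49, 7.38 and 6.26 in WTCR and 7.96, 7.26 and 7.21 in Dgat1-/-AL (-1.10 ± 0.49), and *Clock* differed by -0.57 ± 0.25, neither past the threshold. *Clock* was called lower with a replicate block (adjusted p = 0.131), and both genes were called lower over all 9 arrays (adjusted p = 0.299 for *Arntl* and 0.238 for *Clock*). *Nr1d1*, a repressor of *Arntl*, was at 10.12 in Dgat1-/-AL replicate 1 and at 8.01 and 8.41 in the other mutant arrays, a spread wider than the difference between the groups (-0.59 ± 0.54). Of 13 clock output genes 10 were higher and 2 lower in WTCR (median 0.71), with *Tef* (1.36 ± 0.17), a relative of DBP, and *Wee1* (1.86 ± 0.32), a kinase that holds back mitosis, among the higher. *Nfil3* and *Noct* were the lower ones, and *Noct*, a rhythmic phosphatase, is named because the count is small (it was 1 without Dgat1-/-AL replicate 1 or 2 or WTCR replicate 2 or 3).

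The E-box CACGTG, the letters bound by CLOCK and BMAL1, was searched on both strands of the RefSeq promoter windows (build GRCm38.p6, 250 bases before to 50 after the start). It was present in 8.09% of 27025 genes with a window, in 9.50% of the measured genes, in 15.9% of 591 called higher in WTCR and in 8.39% of 644 called lower. Among the 15 largest higher genes, 4 of the 14 with a window held it, namely *Ciart*, *Fkbp5*, *Per1* and *Slc20a1*. Among the 15 largest lower genes, 1 of the 13 with a window held it, *Hsph1*. The windows of *Ciart* (chr3:95882179-95882478, minus strand) and *Per1* (chr11:69098699-69098998, plus strand) are shown, with the E-boxes in capitals. Both were chosen as core clock genes that held the E-box.
Ciart: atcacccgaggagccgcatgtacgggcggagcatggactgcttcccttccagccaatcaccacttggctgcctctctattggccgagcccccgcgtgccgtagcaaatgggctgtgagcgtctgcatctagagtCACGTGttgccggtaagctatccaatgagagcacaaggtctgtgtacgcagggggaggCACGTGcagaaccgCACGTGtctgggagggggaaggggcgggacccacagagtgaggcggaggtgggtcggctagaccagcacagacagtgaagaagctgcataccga
Per1: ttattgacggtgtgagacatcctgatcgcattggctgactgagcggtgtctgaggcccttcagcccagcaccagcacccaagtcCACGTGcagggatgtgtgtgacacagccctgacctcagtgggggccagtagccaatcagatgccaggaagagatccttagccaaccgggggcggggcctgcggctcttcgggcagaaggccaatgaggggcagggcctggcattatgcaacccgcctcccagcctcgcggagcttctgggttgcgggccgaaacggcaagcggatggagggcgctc
*Ciart* held 3 copies, starting 116, 58 and 44 bases before the start, and *Per1* held 1, starting 166 bases before it. The D-box TTANGTAA, bound by DBP and NFIL3, was in 2.54% of the genes called higher, 3.11% of those called lower, 2.41% of the measured genes and 2.72% of all genes with a window. The ROR element TAGGTCA was in 2.71% of the genes called higher, 4.97% of those called lower, 2.63% of the measured genes and 2.97% of all. A match describes letters in the window only.

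Of 16 genes in a list of glucocorticoid response genes and metallothioneins, 9 were called higher in WTCR and 1 lower. The median was 0.42 (5 higher without Dgat1-/-AL replicate 3). No metallothionein was among the called genes. *Fkbp5*, a cochaperone of the glucocorticoid receptor, was at 9.69, 9.91 and 10.18 in WTCR against 8.0, 8.07 and 8.31 (1.80 ± 0.15, adjusted p = 0.0224). *Zbtb16*, a zinc finger factor, was higher by 1.53 ± 0.21 and *Tsc22d3*, an inhibitor of inflammatory signaling, by 0.64 ± 0.10. *Per1* and *Lpin1* also count in this list. The gene called lower was *Serpina6* (-1.14), the plasma carrier of corticosteroids, which is named because it stood alone. The half-site AGAACA was in 14.7% of windows of the higher genes, 17.9% of those of the lower genes, 17.8% of those of measured genes and 21.3% of all.

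**Figure D2:**
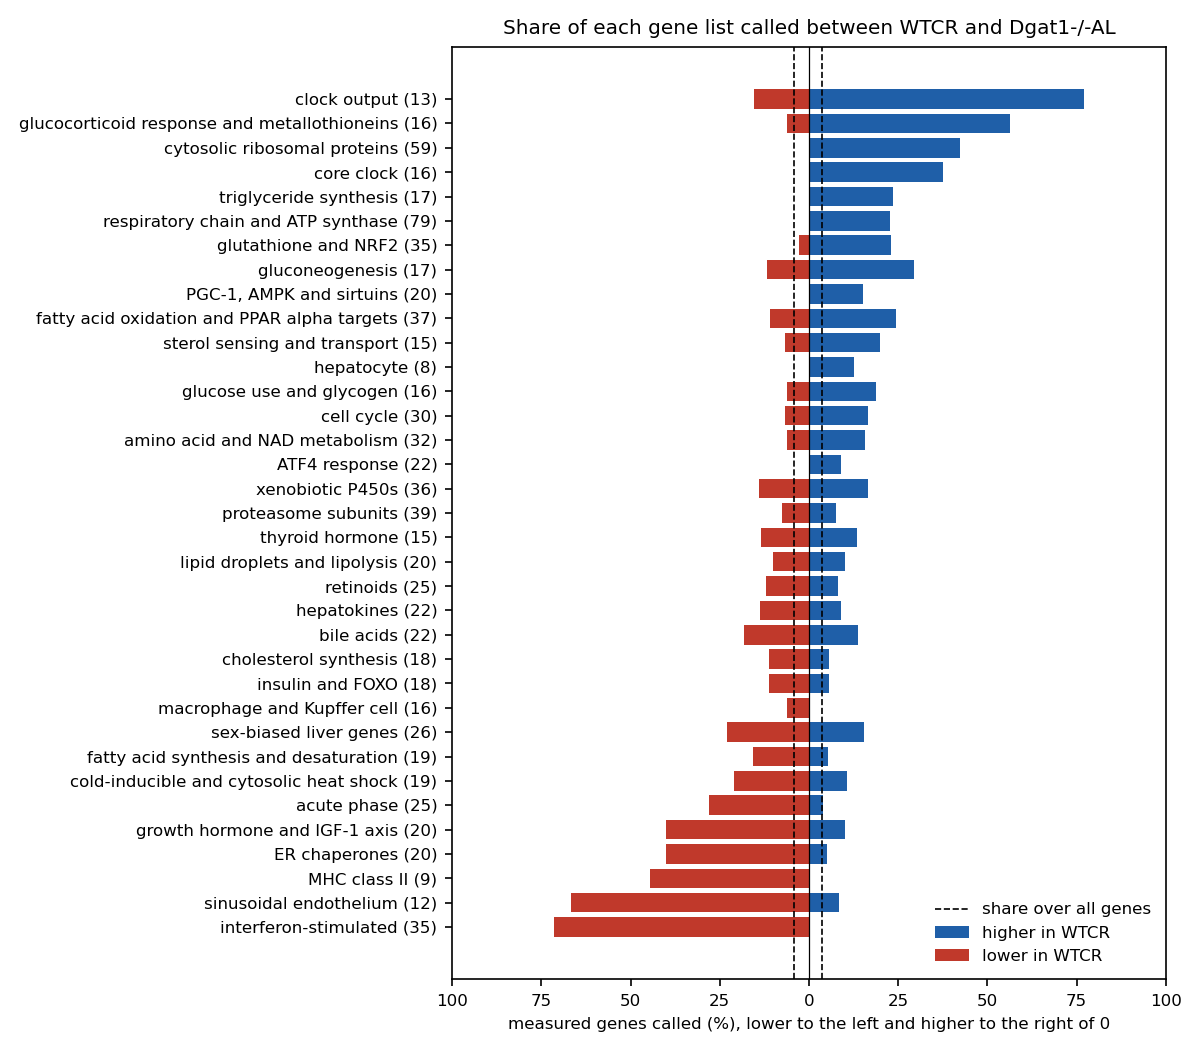
Percent of the measured genes of the pathway lists and 3 cell marker lists (number of genes in parentheses, y axis) called higher (blue, to the right) or lower (red, to the left) in WTCR than in Dgat1-/-AL livers (x axis). Dashed lines mark the shares over all genes, 3.71% higher and 4.09% lower, which the clock output, interferon and sinusoidal endothelium bars exceed most.

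Among 19 cold-inducible and heat shock genes 2 were called higher in WTCR and 4 lower, with the same counts whichever array was left out, and 13 were not called (median -0.02). *Cirbp*, a cold-inducible RNA-binding protein, was at 9.22, 9.11 and 9.10 in WTCR and 7.76, 7.29 and 7.65 in Dgat1-/-AL (1.58 ± 0.13, adjusted p = 0.0224). Its relative *Rbm3* was higher by 1.74 ± 0.24, with the same sign at both of its other probe sets. *Hsph1*, a partner of HSP70, was at 6.54, 6.62 and 6.75 against 7.97, 7.94 and 8.23 (-1.41 ± 0.10). *Hsp90aa1*, an inducible HSP90, was lower by -1.09 ± 0.19 and its cochaperone *Stip1* by -0.56 ± 0.10. The heat shock element GAANNTTC was in 10.4% of the windows of genes called lower, 7.45% of those called higher, 7.94% of those of measured genes and 9.04% of all.

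Chaperones of the endoplasmic reticulum were lower in WTCR in 8 of 20 genes and higher in 1 (median -0.36). The higher one, *Herpud1*, works in the removal of misfolded proteins and was at 11.84, 11.80 and 11.77 against 10.40, 9.76 and 9.95 (1.77 ± 0.16, adjusted p = 0.032). Among the lower ones were *Hspa5*, which encodes BiP (-0.50 ± 0.12), and the protein disulfide isomerase *Pdia4* (-0.94 ± 0.25, with -0.36 and no call at its other probe set). The mean signal of the list was 10.60 in Dgat1-/-AL replicate 1 and 9.98 to 10.10 in the other mutant arrays, against 9.90 to 9.92 in WTCR, and 4 genes were lower without WTCR replicate 2. *Mlec*, a lectin of the endoplasmic reticulum that binds newly made glycoproteins, was lower by -1.44 ± 0.16, with -1.57 ± 0.19 at its other probe set. Of 22 genes of the ATF4 stress response 2 were higher and 0 lower, a share called of 9.09% and so near the 7.80% of all genes. The higher count was 1 without any 1 of the WTCR arrays and 4 without Dgat1-/-AL replicate 1. *Atf4* itself was 1 of the 2 (8.55, 8.56 and 8.71 against 8.08, 8.07 and 8.18).

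In triglyceride synthesis 4 of 17 genes were higher in WTCR and 0 lower. *Lpin1*, the phosphatidate phosphatase that makes diacylglycerol, was at 10.22, 9.84 and 9.88 in WTCR and 8.0, 7.45 and 7.50 in Dgat1-/-AL (2.33 ± 0.18, adjusted p = 0.0224). *Lpin2*, of the same family, was higher by 0.83 ± 0.21. *Gpd1*, which makes glycerol 3-phosphate, was higher by 0.50 ± 0.18, but it was no longer called once WTCR replicate 3 or Dgat1-/-AL replicate 2 or 3 was left out (0.31 to 0.59 over the 6 fits). Since *Dgat1* is 1 of the 4 and the mutant lacks it, 3 genes remain apart from the deleted one.

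Of 20 lipid droplet and lipolysis genes 2 were higher and 2 lower (20% called, against 7.80% of all genes). The higher count was 0 without WTCR replicate 2 or Dgat1-/-AL replicate 3 and 1 without any other array. *Plin2*, which coats droplets, was at 10.49, 9.54 and 9.86 in WTCR and 11.63, 10.92 and 10.79 in Dgat1-/-AL (-1.15 ± 0.32), and *Fitm1*, which helps to form them, was lower by -0.86 ± 0.17. *Pnpla2*, the adipose triglyceride lipase, was higher by 1.19 ± 0.36, which fell short when Dgat1-/-AL replicate 3 or WTCR replicate 1 or 2 was dropped (0.87 to 1.59). *Apoa4*, an apolipoprotein of triglyceride-rich particles, was at 12.31, 12.38 and 12.41 against 10.54, 10.84 and 11.04 (1.56 ± 0.13, adjusted p = 0.023). Its groups were more than 1 log2 unit apart at every array.

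Fatty acid synthesis and desaturation had 1 of 19 genes higher and 3 lower (21.1% called, against 7.80% of all genes). The count of lower genes was 5 with a replicate block and 1 without WTCR replicate 3 or Dgat1-/-AL replicate 2, and the higher one, the lipogenic *Thrsp*, was not called without any 1 of the WTCR arrays (2 genes were higher without Dgat1-/-AL replicate 1). *Elovl2*, an elongase of polyunsaturated chains, was lower by -0.55 ± 0.13. *Acly*, which supplies cytosolic acetyl-CoA, was at 9.76, 9.04 and 9.36 against 9.96, 10.07 and 9.94 (-0.60 ± 0.18), not called in the same pair of fits (-0.79 to -0.43).

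In cholesterol synthesis 1 of 18 genes was higher and 2 lower (16.7% called, against 7.80% of all genes), with a median of 0.00. The higher count was 0 without any 1 array other than Dgat1-/-AL replicate 1. The lower one was 1 without WTCR replicate 3 or Dgat1-/-AL replicate 2. *Hmgcs1*, which makes HMG-CoA, was at 11.55, 11.15 and 11.10 in WTCR and 11.83, 12.29 and 11.75 in Dgat1-/-AL (-0.69 ± 0.19, adjusted p = 0.188). *Mvd*, which makes isopentenyl diphosphate, differed by -0.14 ± 0.17, and its arrays overlapped. Among 15 genes of sterol sensing and transport 3 were higher and 1 lower (5 higher with a replicate block, and 0 lower without Dgat1-/-AL replicate 2 or 3 or WTCR replicate 1 or 3). *Mylip*, which marks the LDL receptor for breakdown, was higher by 0.47 ± 0.06 (adjusted p = 0.0421, and 0.0627 with a replicate block). *Abcg5*, a canalicular sterol exporter, was at 10.73, 9.49 and 10.18 against 9.23, 8.78 and 9.05 (1.12 ± 0.32).

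Bile acid genes were called both ways, 3 of 22 higher and 4 lower in WTCR (without Dgat1-/-AL replicate 1 the higher count was 5, and the lower one was 2 without WTCR replicate 3 or Dgat1-/-AL replicate 3). *Hsd3b7*, an early enzyme of bile acid synthesis, was at 10.48, 10.39 and 10.44 against 11.16, 11.31 and 11.27 (-0.81 ± 0.07, adjusted p = 0.0224). *Cyp7b1*, of the alternative route, was lower by -0.90 ± 0.17. *Cyp7a1*, the rate-limiting enzyme of the classic route, was at 11.99, 12.35 and 12.21 in WTCR and 10.63, 11.73 and 11.38 in Dgat1-/-AL (0.94 ± 0.28), and its call ended without WTCR replicate 2 or 3 (0.63 to 1.18). *Nr1h4*, the bile acid receptor, was higher by 0.68 ± 0.17. *Slc10a2*, a bile acid uptake carrier, was at 4.59, 4.82 and 5.22 against 6.52, 6.48 and 6.21 (-1.53 ± 0.17, adjusted p = 0.0368, and 0.0586 with a replicate block).

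Of 37 genes of fatty acid oxidation and PPAR alpha targets 9 were higher and 4 lower (median 0.21). The omega-hydroxylases *Cyp4a14* (0.96 ± 0.15) and *Cyp4a31* (0.89 ± 0.18), the long-chain dehydrogenase *Acadl* (0.51 ± 0.09) and the carnitine carrier *Slc25a20* (0.55 ± 0.11) were higher. *Eci3*, an enoyl-CoA isomerase, went the other way, at 5.79, 5.63 and 5.64 in WTCR and 7.56, 8.44 and 7.66 in Dgat1-/-AL (-2.20 ± 0.24, adjusted p = 0.0351). *Pdk4*, which restrains pyruvate dehydrogenase, was lower by -0.82 ± 0.17. The list thus held calls in both directions, and its largest difference was one of the lower genes.

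Gluconeogenesis had 5 of 17 genes higher and 2 lower (1 lower without WTCR replicate 2 or Dgat1-/-AL replicate 1). *G6pc*, the catalytic subunit of glucose 6-phosphatase, was at 9.21, 8.97 and 8.88 in WTCR and 10.96, 10.91 and 10.57 in Dgat1-/-AL (-1.80 ± 0.14, adjusted p = 0.0224). *Slc37a4*, the transporter that feeds the same enzyme, was at 11.67, 11.57 and 11.41 against 10.65, 9.78 and 10.07 (1.38 ± 0.23). These partners in glucose release stood on opposite sides. *Gpt*, an alanine aminotransferase, was higher by 1.08 ± 0.14 (adjusted p = 0.0487, and 0.0691 with a replicate block), *Gpt2* by 0.55 ± 0.12 and the coactivator *Ppargc1a* by 0.84 ± 0.16, with 0.57 at its other probe set.

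Of 16 genes of glucose use and glycogen 3 were higher and 1 lower (7 higher without WTCR replicate 2 and 1 without WTCR replicate 1). The lower one, *Ppp1r3c*, brings phosphatase 1 to glycogen and was at 7.33, 7.07 and 6.95 against 8.23, 8.67 and 8.36 (-1.30 ± 0.15, adjusted p = 0.0368, and 0.0553 with a replicate block). In the insulin and FOXO list 1 of 18 was higher and 2 lower (16.7% called, against 7.80% of all genes). The higher count was 2 with a replicate block or without WTCR replicate 3. The lower one was 1 without Dgat1-/-AL replicate 1 or 3 or WTCR replicate 2 or 3. *Sesn3*, a FOXO target of nutrient sensing, was at 7.21, 7.05 and 6.88 against 8.37, 8.09 and 8.17 (-1.16 ± 0.11, adjusted p = 0.0335). The WTAL arrays lay between the groups at 7.72, 7.63 and 7.80.

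The growth hormone and IGF-1 axis was lower in WTCR in 8 of 20 genes and higher in 2, with a median of -0.38 (5 lower without WTCR replicate 2). *Mup3*, a major urinary protein that depends on growth hormone, had the largest adjusted difference among the lower genes, at 8.97, 8.87 and 8.58 in WTCR and 11.77, 11.76 and 11.40 in Dgat1-/-AL (-2.83 ± 0.15, adjusted p = 0.0117). Other *Mup* genes are near-identical, so their transcripts may share its probes. The receptor *Ghr* was lower by -0.80 ± 0.17 and its transcription factor *Stat5b* by -0.74 ± 0.13. *Igfbp3*, which carries IGF-1 in plasma, was lower by -0.63 ± 0.13. *Igf1* was at 10.96, 10.73 and 10.49 against 11.18, 11.22 and 10.84 and was not called (-0.35 ± 0.16, adjusted p = 0.42). The higher genes were the STAT5 feedback inhibitors *Socs2* (0.50, with 0.12 ± 0.08 and no call at its other probe set) and *Cish* (0.44), named because the count is small. The groups overlapped in both, and 0 were higher without Dgat1-/-AL replicate 2 or WTCR replicate 2 or 3, while 1 was higher without WTCR replicate 1 or Dgat1-/-AL replicate 3. Of 26 genes that differ between the sexes in mouse liver 4 were higher and 6 lower (3 lower without Dgat1-/-AL replicate 2), and *Cyp2d9*, a male-biased P450, was at 8.04, 7.80 and 7.80 against 6.64, 6.31 and 6.73 (1.32 ± 0.13).

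Among 15 thyroid hormone genes 2 were higher and 2 lower, and the lower ones had the widest gaps of the called members (0 higher without WTCR replicate 2, and 1 without Dgat1-/-AL replicate 2 or 3 or WTCR replicate 1 or 3). *Dio1*, which activates thyroid hormone, was at 7.21, 5.64 and 7.79 in WTCR and 10.09, 9.73 and 10.04 in Dgat1-/-AL (-3.08 ± 0.53, adjusted p = 0.0797). *Serpina7*, the thyroxine-binding globulin, was at 8.88, 8.34 and 7.65 against 11.64, 9.81 and 10.59 (-2.39 ± 0.52, adjusted p = 0.12). The WTAL arrays of *Dio1* (9.58 to 9.64) lay just under the mutant ones, whereas those of *Serpina7* (8.08, 9.53 and 8.32) lay nearer to WTCR. *Thrsp*, also a thyroid hormone target, was higher by 1.01 ± 0.34 (0.60 to 1.24 when 1 array was left out).

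**Figure D3:**
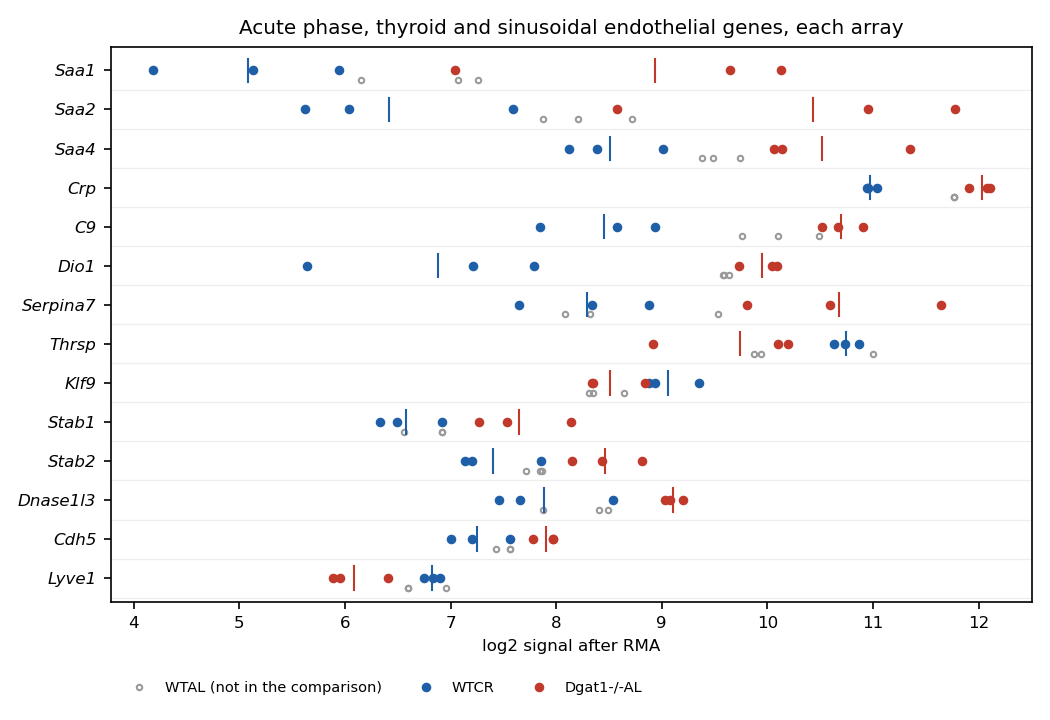
Log2 signal (x axis) of selected acute phase, thyroid and sinusoidal endothelial genes (y axis) on each array, with WTCR in blue, Dgat1-/-AL in red, WTAL in open gray and vertical bars at group means. *Saa1* in Dgat1-/-AL spreads from 7.04 to 10.13, while *Crp* spreads from 11.91 to 12.11.

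Acute phase proteins were lower in WTCR in 7 of 25 genes and higher in 1 (median -0.36, with 4 lower without WTCR replicate 2). The higher count was 0 without any 1 array other than Dgat1-/-AL replicate 1, and 2 without that array. *Crp*, the C-reactive protein, was at 10.94, 10.95 and 11.04 in WTCR and 12.11, 12.08 and 11.91 in Dgat1-/-AL (-1.05 ± 0.08, adjusted p = 0.0224). The serum amyloid A genes had wider gaps and far wider spreads. *Saa1* was at 5.94, 5.13 and 4.18 against 10.13, 9.65 and 7.04 (-3.86 ± 0.89, adjusted p = 0.131), *Saa2* differed by -4.02 ± 0.92 and *Saa4* by -2.01 ± 0.40, and as near-identical copies *Saa1* and *Saa2* may share probes. Dgat1-/-AL replicate 3 was the lowest mutant array for both. *C9*, a component of the complement pore, was at 8.94, 8.58 and 7.85 against 10.91, 10.67 and 10.52 (-2.25 ± 0.28, adjusted p = 0.0474).

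Among the lists called in 1 direction only, interferon-stimulated genes had the largest share called, with 25 of 35 lower in WTCR than in Dgat1-/-AL and 0 higher (median -0.51). Leaving out 1 array gave 16 to 21, with 16 without Dgat1-/-AL replicate 2. *Irgm1*, an immunity-related GTPase, was at 7.22, 6.81 and 7.12 in WTCR and 8.22, 8.55 and 8.21 in Dgat1-/-AL (-1.27 ± 0.15, adjusted p = 0.0368, and 0.0619 with a replicate block). *Ifit1*, which binds viral RNA, was at 5.11, 5.11 and 5.27 against 6.57, 8.03 and 6.96 (-2.02 ± 0.36). *Ifit3*, its partner, differed by -1.71 ± 0.23, *Gbp3*, a guanylate-binding protein, by -1.33 ± 0.23 and *Irf9*, which carries the interferon signal to the nucleus, by -1.0 ± 0.19. The WTAL mean lay nearer to Dgat1-/-AL in 25 of the 25 (also without the array labelled WTAL replicate 2). It did so in most called genes, 708 of all 816 lower in WTCR. *Ifi27l2a*, another interferon-induced gene, did not pass (-0.17 ± 0.15), with WTCR at 5.84, 6.17 and 6.42 and Dgat1-/-AL at 6.19, 6.38 and 6.36.

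The interferon-stimulated response element AAANNGAAA was in 14.9% of the windows of genes called lower in WTCR, 6.94% of those called higher, 11.1% of those of measured genes and 12.1% of all. The *Irgm1* window (chr11:48871371-48871670, minus strand, build GRCm38.p6) is shown because this gene led the list, with its 2 overlapping matches in capitals, the nearer starting 23 bases before the start.
Irgm1: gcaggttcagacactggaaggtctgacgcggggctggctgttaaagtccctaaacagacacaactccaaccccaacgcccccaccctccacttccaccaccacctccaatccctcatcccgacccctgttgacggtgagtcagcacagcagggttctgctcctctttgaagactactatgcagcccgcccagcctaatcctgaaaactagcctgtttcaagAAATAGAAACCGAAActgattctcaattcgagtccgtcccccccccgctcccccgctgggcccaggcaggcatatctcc

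MHC class II genes, which present antigen to helper T cells, were lower in 4 of 9 and higher in 0 (median -0.33). *H2-Aa* was at 7.31, 7.03 and 6.75 in WTCR and 8.45, 8.16 and 8.19 in Dgat1-/-AL (-1.23 ± 0.16, adjusted p = 0.0487), *H2-Eb1* differed by -0.83 ± 0.11 (adjusted p = 0.0474, and 0.0686 with a replicate block) and *H2-Ab1* by -0.99 ± 0.13. The invariant chain *Cd74* was lower by -1.26 ± 0.39, and not called without WTCR replicate 2 or 3 (-1.50 to -0.86). Markers of cells that carry class II are given beside it, and their part in these differences was not tested. Of 16 macrophage and Kupffer cell markers 1 was lower, *Csf1r* (-0.84 ± 0.23), and 0 were higher (4 lower without WTCR replicate 3). The share called was 6.25%, near the 7.80% of all genes. The mean of the list overlapped between WTCR (7.58 to 8.18) and Dgat1-/-AL (7.66 to 8.07). Of 9 B and plasma cell markers 1 was lower (11.1% called, against 7.80% of all genes). This was *Ms4a1*, the B cell antigen CD20 (-0.56 ± 0.18). It was not called over all 9 arrays or without Dgat1-/-AL replicate 2 or 3 or WTCR replicate 2 or 3. Of the B cell markers 0 were lower without WTCR replicate 2 or Dgat1-/-AL replicate 2 or 3, and 2 with a replicate block or without Dgat1-/-AL replicate 1. Of 11 T and NK cell markers 2 were lower (18.2% called, against 7.80% of all genes). They were *Nkg7*, of cytotoxic granules (-0.59 ± 0.10), and *Cd3g*, of the T cell receptor complex (-0.54 ± 0.13). These lymphocyte genes were dim, at 5.38 or less on the 6 arrays.

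Markers of the liver sinusoidal endothelium, the fenestrated lining that clears waste from blood, were lower in WTCR in 8 of 12 genes and higher in 1 (median -0.59). *Stab2*, a hyaluronan scavenger receptor, was at 7.86, 7.14 and 7.20 in WTCR and 8.81, 8.43 and 8.15 in Dgat1-/-AL (-1.06 ± 0.25). *Stab1*, its paralog, was at 6.92, 6.49 and 6.33 against 8.14, 7.53 and 7.27 (-1.07 ± 0.26), *Dnase1l3*, a secreted nuclease, differed by -1.22 ± 0.28 and *Cdh5*, the endothelial cadherin, by -0.65 ± 0.15. *Lyve1*, another hyaluronan receptor, went against the rest at 6.90, 6.83 and 6.75 against 5.89, 6.41 and 5.95 (0.75 ± 0.15). None of the 9 reached an adjusted p under 0.05 (lowest 0.0976), and the count of 8 was 4 without WTCR replicate 2 or Dgat1-/-AL replicate 2 and 5 without WTCR replicate 3. Of the 8 lower genes, the WTAL mean lay nearer to WTCR in 6 (also 6 without the array labelled WTAL replicate 2), unlike most called genes. *Pecam1*, found on all endothelium, differed by -0.22 ± 0.09 and was not called. The part of these markers in the other differences was not tested. WTCR replicate 1 carried the highest list mean of its group, 7.91, against 7.95 to 8.25 in Dgat1-/-AL.

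Hepatocyte markers had 1 of 8 called (12.5%, against 7.80% of all genes), the transcription factor *Hnf4a* (0.39 ± 0.09, not called without Dgat1-/-AL replicate 2 or 3). Their mean signal was 13.25 to 13.40 in WTCR and 13.22 to 13.37 in Dgat1-/-AL, so the defining markers of liver were high and their ranges overlapped. Stellate cell and fibroblast markers had 1 of 12 higher (0 without WTCR replicate 1 or Dgat1-/-AL replicate 3) and 3 lower, with *Reln*, a secreted matrix protein of stellate cells, at 8.54, 7.98 and 8.14 against 8.96, 9.09 and 8.83 (-0.74 ± 0.16). Of 5 adipocyte markers 1 was lower (20% called, against 7.80% of all genes). This was *Car3*, which hepatocytes also express, at 12.26, 11.98 and 10.39 against 12.99, 13.02 and 13.13. It was not called without any 1 of the Dgat1-/-AL arrays (-1.86 to -0.92). Of the cholangiocyte, neutrophil, erythroid and pancreatic acinar markers (5, 9, 3 and 7 genes) 0 were called at the study's threshold.

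**Figure D4:**
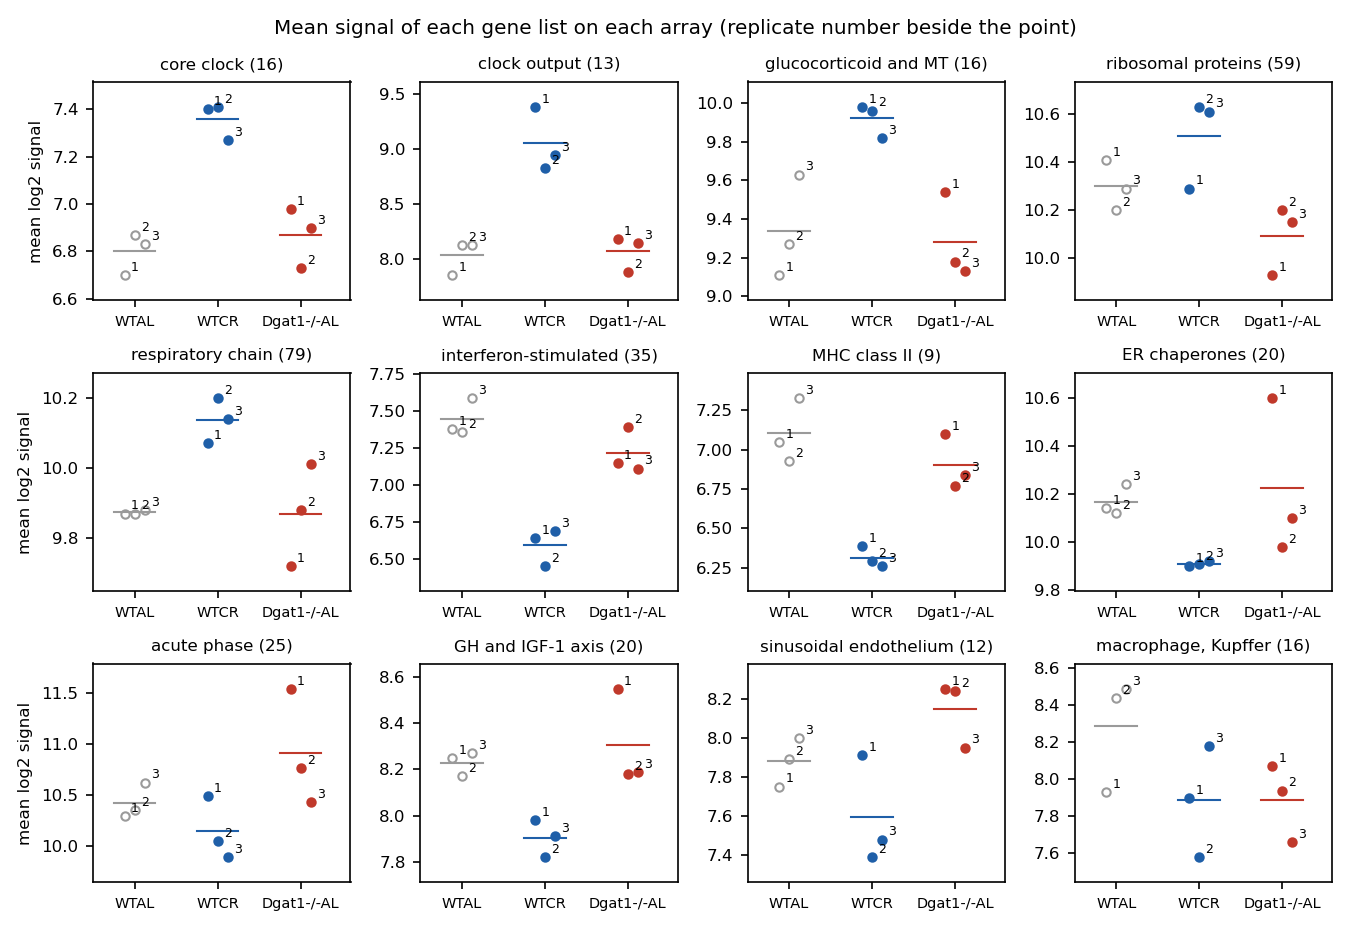
For 12 lists (number of measured genes in parentheses), the log2 signal averaged over the list (y axis) is plotted for each array under its group (x axis), digits giving the replicate and short lines the group means. The 3 WTCR points lie apart from the 3 Dgat1-/-AL points in every panel but the acute phase and macrophage ones, where they overlap. The gap is narrow in some, as in the respiratory chain (lowest WTCR 10.07, highest Dgat1-/-AL 10.01).

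Cytosolic ribosomal proteins were higher in WTCR in 25 of 59 genes and lower in 0, with a median of 0.45 and 57 of the 59 differences above 0. *Rpl8* was at 11.02, 11.26 and 11.25 in WTCR and 10.51, 10.30 and 10.50 in Dgat1-/-AL (0.74 ± 0.10, adjusted p = 0.0491, and 0.0671 with a replicate block). *Rps20*, of the small subunit, differed by 0.56 ± 0.09, *Rplp0*, of the stalk, by 0.50 ± 0.09 and *Rpl6* by 0.69 ± 0.12. Differences were small and alike across the called members, from 0.38 to 0.78. The count was 38 without WTCR replicate 1, 14 without WTCR replicate 2 and 16 without Dgat1-/-AL replicate 1, and the list mean was lowest in that mutant array (9.93) and in WTCR replicate 1 (10.29) of their groups. Many ribosomal protein genes have processed pseudogenes that can share their probes.

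Subunits of the respiratory chain and ATP synthase were higher in 18 of 79 genes and lower in 0 (median 0.30, with 12 to 24 when 1 array was left out). *Sdhd*, an anchor of succinate dehydrogenase, was at 10.86, 10.68 and 10.65 in WTCR and 10.28, 10.24 and 10.34 in Dgat1-/-AL (0.44 ± 0.08). *Atp5g2*, of the ATP synthase rotor, differed by 0.62 ± 0.11 and *Ndufs7*, of complex I, by 0.42 ± 0.08. The WTAL mean lay nearer to Dgat1-/-AL in 17 of these 18 genes and in 16 of the 25 ribosomal ones, against 658 of all 739 genes called higher. Without the array labelled WTAL replicate 2 the counts were 17, 15 and 653. Proteasome subunits had 3 of 39 higher and 3 lower (15.4% called, against 7.80% of all genes). The lower ones included the interferon-inducible *Psmb8* and *Psmb9* (-0.41 ± 0.13 each), which also count among the called interferon-stimulated genes. The higher count was 0 without WTCR replicate 2 or Dgat1-/-AL replicate 2, and the lower one 0 without WTCR replicate 3 and 1 without WTCR replicate 2 or Dgat1-/-AL replicate 1 or 2.

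**Figure D5:**
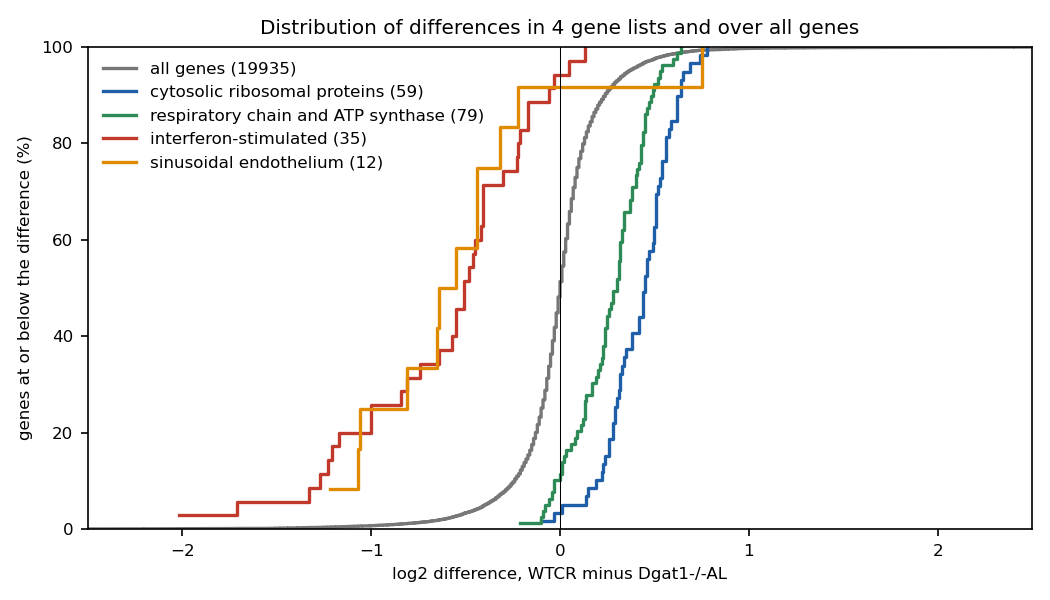
Cumulative percent of genes (y axis) at or below each log2 difference, WTCR minus Dgat1-/-AL (x axis), for 4 lists and for all 19935 genes (gray). The ribosomal and respiratory lines lie to the right of the gray line (medians 0.45 and 0.30), and the interferon and sinusoidal endothelium lines to its left (medians -0.51 and -0.59) up to *Lyve1*, the last endothelial gene at 0.75.

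Genes of energy sensing had 3 of 20 higher and 0 lower (15% called, against 7.80% of all genes). The higher count was 5 with a replicate block, or without WTCR replicate 3 or Dgat1-/-AL replicate 3. *Prkag1*, a regulatory subunit of AMPK, was at 9.48, 9.27 and 9.46 against 8.87, 8.74 and 8.88 (0.58 ± 0.08, adjusted p = 0.0562). *Nrf1*, an activator of mitochondrial genes, differed by 0.50 ± 0.12. *Ppargc1b*, the paralog of *Ppargc1a*, was at 6.77, 6.65 and 6.13 against 6.19, 6.05 and 6.12 and was not called (0.40 ± 0.17, adjusted p = 0.395), though it was with a replicate block and over all 9 arrays. In amino acid and NAD metabolism 5 of 32 were higher and 2 lower (4 lower with a replicate block or without WTCR replicate 1, 1 without Dgat1-/-AL replicate 1, and 0 without WTCR replicate 3 or Dgat1-/-AL replicate 3). *Nampt*, which salvages nicotinamide into NAD, was at 10.02, 9.73 and 9.85 against 8.28, 8.92 and 8.72 (1.22 ± 0.18, adjusted p = 0.056), and *Prodh*, which oxidizes proline, was higher by 0.93 ± 0.13.

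Drug-metabolizing enzymes were called in both directions. Of 36 P450s and their receptors 6 were higher, among them *Cyp3a25* (0.60 ± 0.07, adjusted p = 0.047, and 0.0613 with a replicate block), and 5 were lower, with 2 lower without WTCR replicate 2 and 3 without Dgat1-/-AL replicate 2 or 3. *Cyp2c70*, which makes muricholic acids, was lower by -0.46 ± 0.08, and *Nr1i2*, the xenobiotic receptor PXR, was higher by 0.47 ± 0.09. Glutathione and NRF2 genes had 8 of 35 higher and 1 lower (4 higher without WTCR replicate 2, and 5 without WTCR replicate 1 or Dgat1-/-AL replicate 2). *Mgst3*, a microsomal glutathione transferase, was at 8.54, 8.68 and 8.53 against 7.41, 7.67 and 7.77 (0.97 ± 0.11, adjusted p = 0.0368). The lower one was *Gclc*, the rate-limiting enzyme of glutathione synthesis, at 10.41, 10.15 and 10.16 in WTCR against a mean of 10.86 ± 0.12 (SD, 3 mice) in Dgat1-/-AL (-0.62 ± 0.10), with WTAL at 10.47 to 10.54, nearer to WTCR. The lower count of 1 became 3 without WTCR replicate 1 and 2 with a replicate block.

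Of 30 cell cycle genes 5 were higher and 2 lower. The lower ones were D-type cyclins, which carry cells through the start of the cycle. *Ccnd1* was at 7.69, 7.05 and 7.59 in WTCR and 8.96, 9.02 and 8.96 in Dgat1-/-AL (-1.53 ± 0.17, adjusted p = 0.0368), and *Ccnd2* differed by -0.74 ± 0.12. *Myc*, a growth-promoting factor, was higher by 0.88 ± 0.14 and the CDK inhibitor *Cdkn1c* by 0.47 ± 0.11. Among 22 hepatokines 2 were higher and 3 lower (6 lower with a replicate block, and 1 without WTCR replicate 2 or 3). *Angptl8*, an inhibitor of lipoprotein lipase that feeding induces, was at 8.26, 8.21 and 8.34 in WTCR and 7.60, 7.63 and 7.71 in Dgat1-/-AL (0.62 ± 0.06, adjusted p = 0.0335). Its WTAL arrays spread over both groups, at 7.60, 8.91 and 8.69, and it was not called over all 9 arrays.

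Retinoid genes, of interest since DGAT1 also esterifies retinol, had 2 of 25 higher and 3 lower (20% called, against 7.80% of all genes). The lower count was 1 without WTCR replicate 2. *Dgat1* is 1 of the higher ones. *Cyp26a1*, which degrades retinoic acid, was the other, at 10.15, 10.04 and 10.57 in WTCR and 7.87, 7.41 and 8.25 in Dgat1-/-AL (2.41 ± 0.24, adjusted p = 0.0335). *Dhrs9*, which oxidizes retinol, was at 4.97, 5.25 and 5.11 against 7.30, 6.25 and 6.51 (-1.58 ± 0.27). *Lrat*, which makes retinyl esters in stellate cells, was lower by -0.65 ± 0.23, and kept its call only in the fits without WTCR replicate 3 or Dgat1-/-AL replicate 1 (-0.82 to -0.44 over the 6 fits).

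Several leading genes belong to no list. *Slc20a1*, a phosphate transporter, was higher in WTCR by 2.15 ± 0.25, *St3gal5*, the sialyltransferase that makes the ganglioside GM3, by 1.56 ± 0.17, *Smad9*, a BMP-responsive SMAD, by 1.41 ± 0.12 and *Setdb2*, a lysine methyltransferase family member, by 1.40 ± 0.12. *Slc17a3*, an organic anion transporter, had the lowest adjusted p of all genes, at 8.14, 8.09 and 8.21 in WTCR and 9.68, 9.68 and 9.66 in Dgat1-/-AL (-1.52 ± 0.06, adjusted p = 0.00564). *Cmah*, which makes N-glycolylneuraminic acid, was lower by -1.88 ± 0.21 (adjusted p = 0.0368, and 0.0517 with a replicate block) and *Mmd2*, a membrane protein of the progestin and adipoQ receptor family, by -2.16 ± 0.23 (adjusted p = 0.0335, and 0.0562 with a replicate block). The receptor ligand *Efna1* was lower by -1.49 ± 0.15, the guanylate-binding protein *Gbp11* by -1.47 ± 0.15 and *Chic1*, a palmitoylated membrane protein, by -1.76 ± 0.21, with -1.59 at its other probe set. A clone-named gene outside the naming rule, *BC023105*, was at 4.22, 3.56 and 3.91 against 5.87, 7.05 and 6.44 (-2.56 ± 0.32, adjusted p = 0.0474, and 0.066 with a replicate block). The 30 leading genes were picked from these 6 arrays with groups that do not overlap, so the sign could not change when 1 array was left out. Their unadjusted limma p stayed under 0.05 in each such fit, which the choice also favors. An adjusted p under 0.05 was kept by 0 to 20 of them.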

How the data were processed

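Liver RNA of 9 mice was hybridized to Mouse Gene 1.0 ST arrays. Per the labels, the deposited values are log2 signals produced by the authors using RMA (background correction, quantile normalization and probe set summary). Gene symbols came from the platform annotation: 21780 probe sets had 1 symbol, 1605 several and 5430 none.

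The 6 WTCR and Dgat1-/-AL arrays were fitted with limma 3.58.1 in R 4.3.3 (lmFit, eBayes), with 1 mean per group and no filter. The fold of 1.3 and unadjusted p of 0.05 come from a figure legend of the study. Same-numbered arrays of the groups deviated together from their group means (r = 0.477, 0.252 and 0.211, against -0.371 to 0.184 for differently numbered ones), so a fit with the replicate number as a block is given where it changed a call. The labels do not say what a number shares. The fit was tested on simulated data. Gene lists, members and the naming rule were chosen with earlier results of these data known. The rule took the 15 largest differences per direction among genes with an adjusted p under 0.05 whose groups do not overlap. It also took up to 5 called genes per list by p, called cell markers and genes the study drew. Listed genes without a probe set of 1 symbol were not analysed here.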

Additional observations from a re-analysis of the deposited data

How the results depend on the processing

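Counts at the study's threshold (1209 probe sets higher and 1013 lower in WTCR) stayed within 1.5 times under every alternative but 2: with the probe sets of a gene averaged there were 744 higher, over fewer features, and at a fold over 1.5 there were 491 higher and 532 lower. Leaving out 1 array gave 981 to 1534 higher and 743 to 1208 lower. The adjusted counts (91 higher, 81 lower) moved far more: 511 and 372 over all 9 arrays, 314 and 257 over 8 without the array labelled WTAL replicate 2, 138 and 123 without probe sets of a mean signal under 4.98, 45 and 46 with a mean-variance trend, 352 and 272 with array weights, and 0 to 140 and 0 to 79 when 1 array was left out. With the replicate block they were 110 and 93 (1534 and 1171 at the study's threshold), and 97 of the 172 probe sets passed in both fits. *Dgat1* kept its call in every fit (2.75 to 3.13 without 1 array). Of 168 named genes that were called, 125 kept the call without any 1 array and all 168 kept it with the block, and none reversed. Apart from genes the study drew, the naming rule picked them by difference, p or call on these same arrays. That choice favors keeping the call and the sign, so these counts are no independent test of the calls. Of 65 list counts above 0, 39 moved by over 1.5 times without at least 1 array, 30 of them counts of 5 or fewer. The replicate block moved 8 of them by over 1.5 times and added calls of *Clock* and *Ppargc1b*, and it changed no other call of a gene the text names at the study's threshold. The cause of these shifts was not tested. No depth is defined for array signals, and no detection call was used here, so dim genes carry less certainty.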
